A study of Mus musculus with 14 samples.

Results

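The 42 interferon response genes described here were listed by name, as receptors, signalling factors and interferon-induced genes. The list was chosen with earlier results of these data known. All 42 genes were found by symbol among the 24537 genes listed for each cell type. They were followed in regulatory T (Treg) cells sorted from mouse skin and in hair follicle stem cells (HFSC), sorted by surface CD34 together with high ITGA6. Treg cells from GR KO mice, Foxp3YFP-Cre GRfl/fl animals whose glucocorticoid receptor (GR) gene Nr3c1 is floxed, gave 5 libraries, and Treg cells from WT mice without that deletion gave 3 (GR WT). HFSC of the same genotypes gave 3 GR KO and 3 GR WT libraries. Hair was removed from all animals, GR KO and GR WT, and Treg cells were collected 1 day and HFSC 4 days afterwards. Cre is driven by Foxp3, the lineage factor gene of Treg cells, so HFSC are not a target of the deletion. The labels do not say whether each library came from its own mouse, nor give strain or age, so each p-value below reflects variation between these libraries only, and that variation may be partly technical.

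Interferons are secreted alarm signals. Type I interferons bind a receptor made of Ifnar1 and Ifnar2, whose kinases activate transcription factors, among them Stat2, which works with Irf9 in a complex that binds the interferon-stimulated response element (ISRE) of target genes. Interferon gamma binds a receptor that includes Ifngr1 and acts on target genes that carry the gamma-activated site (GAS). The target genes encode RNA and DNA sensors, enzymes that degrade or trap viral RNA, membrane proteins that block virus entry or release, and feedback inhibitors, and many are also transcribed at a low tonic level without infection.

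To show where matches to these elements lie, the stretch from 250 bases before to 30 bases after the annotated start is given for 6 members. They are the 5 with the smallest Treg p among those whose RefSeq promoter window (GRCm38.p6) held a motif, and Oasl2, whose window held none. A match is a run of letters, and binding was not measured. Capitals mark the ISRE core (GAAA, any 2 bases, GAAA) or the GAS core TTCNNNGAA, searched on both strands, and each sequence is written 5′ to 3′ on the strand of its gene.
Ifit3, chr19:34583279-34583558, plus strand: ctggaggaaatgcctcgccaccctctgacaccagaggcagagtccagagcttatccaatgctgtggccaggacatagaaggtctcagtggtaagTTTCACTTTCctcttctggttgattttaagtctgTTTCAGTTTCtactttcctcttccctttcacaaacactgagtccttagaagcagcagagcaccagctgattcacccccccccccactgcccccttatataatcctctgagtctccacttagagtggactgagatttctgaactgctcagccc
Rsad2, chr12:26456423-26456702, minus strand: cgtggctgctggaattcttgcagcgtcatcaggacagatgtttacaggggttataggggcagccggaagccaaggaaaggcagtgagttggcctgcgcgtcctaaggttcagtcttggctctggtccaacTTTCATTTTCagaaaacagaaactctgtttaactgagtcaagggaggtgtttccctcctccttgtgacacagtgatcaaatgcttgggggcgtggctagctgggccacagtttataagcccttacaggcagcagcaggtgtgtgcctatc
Ifitm3, chr7:141010715-141010994, minus strand: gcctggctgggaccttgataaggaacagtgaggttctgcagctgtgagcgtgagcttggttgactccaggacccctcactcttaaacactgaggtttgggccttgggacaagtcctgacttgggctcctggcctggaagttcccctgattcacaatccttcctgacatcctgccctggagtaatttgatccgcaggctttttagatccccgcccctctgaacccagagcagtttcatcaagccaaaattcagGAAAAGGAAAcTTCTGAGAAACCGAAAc
Ddx58, chr4:40239796-40240075, minus strand: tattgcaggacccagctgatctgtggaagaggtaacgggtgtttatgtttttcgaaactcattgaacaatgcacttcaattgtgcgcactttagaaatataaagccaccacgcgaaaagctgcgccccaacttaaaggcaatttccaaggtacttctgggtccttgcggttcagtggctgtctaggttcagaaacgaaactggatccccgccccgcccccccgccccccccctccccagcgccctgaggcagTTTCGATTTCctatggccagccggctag
Stat2, chr10:128270248-128270527, plus strand: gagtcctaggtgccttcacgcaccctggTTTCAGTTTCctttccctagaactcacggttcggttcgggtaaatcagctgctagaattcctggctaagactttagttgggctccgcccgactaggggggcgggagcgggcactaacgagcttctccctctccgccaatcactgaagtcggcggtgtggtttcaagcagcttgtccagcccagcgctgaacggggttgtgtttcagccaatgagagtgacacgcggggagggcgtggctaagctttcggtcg
Oasl2, chr5:114896684-114896963, plus strand: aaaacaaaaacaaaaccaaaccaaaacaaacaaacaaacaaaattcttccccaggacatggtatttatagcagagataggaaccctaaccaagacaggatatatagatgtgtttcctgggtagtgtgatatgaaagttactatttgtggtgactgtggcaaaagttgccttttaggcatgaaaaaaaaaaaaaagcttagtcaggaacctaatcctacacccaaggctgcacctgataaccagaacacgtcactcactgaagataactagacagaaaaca

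Ifit3 carried its ISRE cores 156 to 147 and 122 to 113 bases before the start, and Rsad2 carried 1 at 120 to 111 bases before it. In Ifitm3 the cores lay just after the start, and its GAS core overlapped the second ISRE core by 3 bases. The shared letters therefore belong to both. Of the 42 genes, 33 matched a RefSeq promoter window of 300 bases (250 before to 50 after the start), and the other 9 (Dhx58, Zbp1, Oas2, Usp18, Mx1, Mx2, Rtp4, Parp14 and Ifi27l2a) are named only. An ISRE core stood in 15 of the 33 genes (45.5%) and in 17 of their 40 windows (42.5%), against 1131 of all 32851 windows (3.44%). A GAS core stood in 10 genes (30.3%) and 11 windows (27.5%), against 2726 of all windows (8.3%), and 4 genes had both motifs and 12 neither. The windows of Lgals3bp, Oasl2, Oasl1 and Cmpk2, which had the smallest p-values in Treg cells, held neither core. Several members also lie side by side. There were 8 pairs of members within 100 kb of each other, holding 15 genes, among them Oasl2 and Oasl1 on chromosome 5 with 10995 bases between them and Rsad2 and Cmpk2 on chromosome 12 with 12763 bases between them.

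Depth and sample identity set limits for all values below. Tags (mapped reads) recovered from the deposited values numbered 9167601 to 14461527 per Treg library and 4503904 to 7989730 per HFSC library, so that 3 tags on a transcript of 2000 bases equal 0.138 to 0.207 TPM in Treg and 0.308 to 0.515 TPM in HFSC. TPM, the deposited unit, is a level scaled to transcript length and library size. Nr3c1 was at 106, 125, 106, 171 and 139 TPM in Treg GR KO and at 171, 233 and 230 TPM in Treg GR WT, and the groups overlapped. In HFSC it averaged 43.6 ± 6.89 TPM in GR KO and 41.6 ± 7.07 TPM in GR WT (SD, n = 3 each). Markers of T and Treg cells summed to 7147 to 10336 TPM in every Treg library, and HFSC libraries held 4643 to 8613 TPM of follicle stem cell markers. GR WT 3 among Treg libraries and GR WT 1 among HFSC libraries, the shallowest library, stood apart from the others of their table on the first principal component of all genes. The genotypes were also separate on this component. Its values were -24.46 to -9.56 in Treg GR KO and 12.35 to 52.12 in Treg GR WT (30.1% of variance). In HFSC they were -17.74 to -13.07 in GR KO and -7.38 to 59.82 in GR WT (37.7% of variance). Every Treg GR WT library had a higher sum of neutrophil, keratinocyte and, Ccr2 aside, macrophage markers than any Treg GR KO library, as described after the Treg results.

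All 42 genes were above 0 in all 8 Treg libraries, whereas HFSC showed a sparser set. By mean level over a table, 31 members reached 10 TPM in Treg cells and 11 did so in HFSC. Every Treg library lay above every HFSC library for 35 members, none showed the opposite, and the ranges of 7 overlapped (Ifitm3, Stat2, Eif2ak2, Usp18, Ifih1, Oasl2 and Ifi44). The 2 cell types were tabulated separately and sampled at different days, so these level differences are a description. Irf7 and Isg20 were also counted on a different transcript in each.

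**Figure D1:**
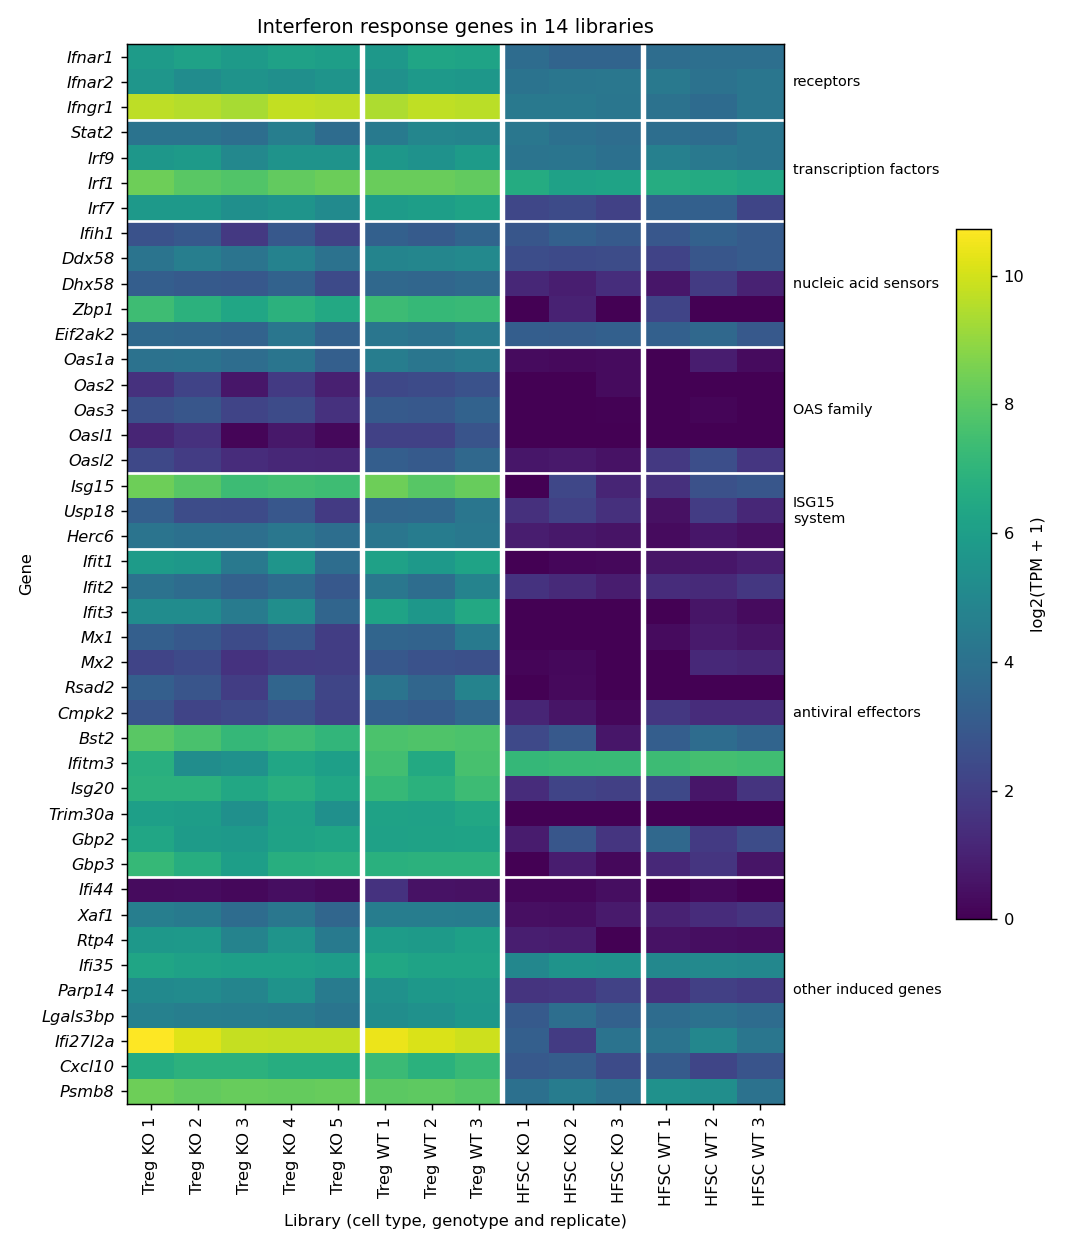
Levels of the 42 genes on the log2(TPM + 1) scale (colour) in every library, with Treg GR KO, Treg GR WT, HFSC GR KO and HFSC GR WT from left to right and genes grouped by role. Ifi27l2a and Ifngr1 are the brightest rows in Treg cells, Ifitm3 is the brightest in HFSC, and most OAS and IFIT rows are dark in HFSC.

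The 5 highest members in Treg cells were Ifi27l2a (mean 1122 TPM over 8 libraries), a small mitochondrial and membrane protein gene induced by interferon, Ifngr1 (769.5 TPM), Irf1 (290 TPM), an interferon gamma-induced transcription factor, Psmb8 (285 TPM), a catalytic subunit of the immunoproteasome, and Isg15 (244 TPM), a ubiquitin-like modifier. Ifngr1 and Irf1 did not differ beyond the spread of their libraries between genotypes. In HFSC the order was Ifitm3 (161 TPM over 6 libraries), a membrane protein that blocks virus entry, Irf1 (85.1 TPM), Ifi35 (35.2 TPM), Psmb8 (24.7 TPM) and Irf9 (18.3 TPM). Ifitm3 was the single member with a higher GR WT mean in HFSC (173 ± 10.5 TPM, SD, n = 3) than in Treg cells (154 ± 56.7 TPM, SD, n = 3) and its ranges overlapped. At the low end, Oasl1 and Trim30a were listed at 0 in all 6 HFSC libraries, and 15 members were at 0 in at least 1 of them.

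In Treg cells, the mean of most members was lower in GR KO, and few differences passed the test. A gene was tested where its mean was at least 1 TPM, with limma on log2(TPM + 1), and called at a Benjamini-Hochberg adjusted p under 0.05 over all 11579 genes tested. Of the 42 members, 41 were tested, 2 were called lower (Lgals3bp and Oasl2) and 0 higher, where 1.31% of all tested genes were called lower and 0.199% higher. In 17 members every GR KO library lay below every GR WT library, as did 5.10% of all genes, and in 1 (Psmb8) every GR KO library lay above, as did 3.42% of all genes. The fold change was below 0 for 39 members, against 55.8% of all genes, and 28 had an unadjusted p under 0.05, against 14.1% of all genes. The median log2 fold change of the members was -0.59 and that of all genes -0.04. Since the members were chosen with earlier results of these data known, these shares describe the list and do not test it. With GR WT 3 left out no member was called (median -0.48), and with GR WT 1 left out 1 was called (median -0.63). In bulk samples such as these, fewer cells of a type and less RNA per cell cannot be told apart.

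The oligoadenylate synthetase (OAS) family, named for enzymes that sense viral RNA and switch on RNase L, had the lowest median fold change among the groups of members. All 5 tested members had GR KO below GR WT in every library, with a median log2 fold change of -1.06, and 1 was called. Oasl2 (NM_011854, chr5:114896934-114912245, plus strand) was at 4.08, 2.77, 1.60, 1.31 and 1.24 TPM in GR KO and at 8.10, 7.29 and 11.5 TPM in GR WT. The highest GR KO library lay well below the lowest GR WT library. Oasl2 fell to 2.20 ± 1.22 TPM in GR KO (SD, n = 5), against 8.96 ± 2.23 TPM in GR WT (SD, n = 3; log2 fold change -1.69, SE 0.30, adjusted p = 0.0196). These values rest on 42 to 105 tags per GR KO library and 179 to 374 per GR WT library. The call was lost without GR WT 1 (adjusted p = 0.0683) or GR WT 3 (adjusted p = 0.108), and leaving out each library in turn gave adjusted p-values of 0.00862 to 0.108.

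Its neighbour Oasl1, whose product in mice restrains translation of Irf7, was at 1.15, 1.86, 0.108, 0.616 and 0.174 TPM in GR KO and at 3.26, 3.25 and 5.96 TPM in GR WT. Even the highest GR KO library stayed below every GR WT library. The log2 fold change was -1.59 (SE 0.37, adjusted p = 0.0667), which did not pass. Without GR KO 2, the highest GR KO library, it passed (adjusted p = 0.0390), as it did with a pseudocount of 5 (adjusted p = 0.0443) and a robust prior (adjusted p = 0.0448). Leaving out each library in turn gave 0.0390 to 0.278. Oas2 averaged 40.5% of its GR WT mean, Oas3 54.6% and Oas1a 68.1%, and none of these passed.

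**Figure D2:**
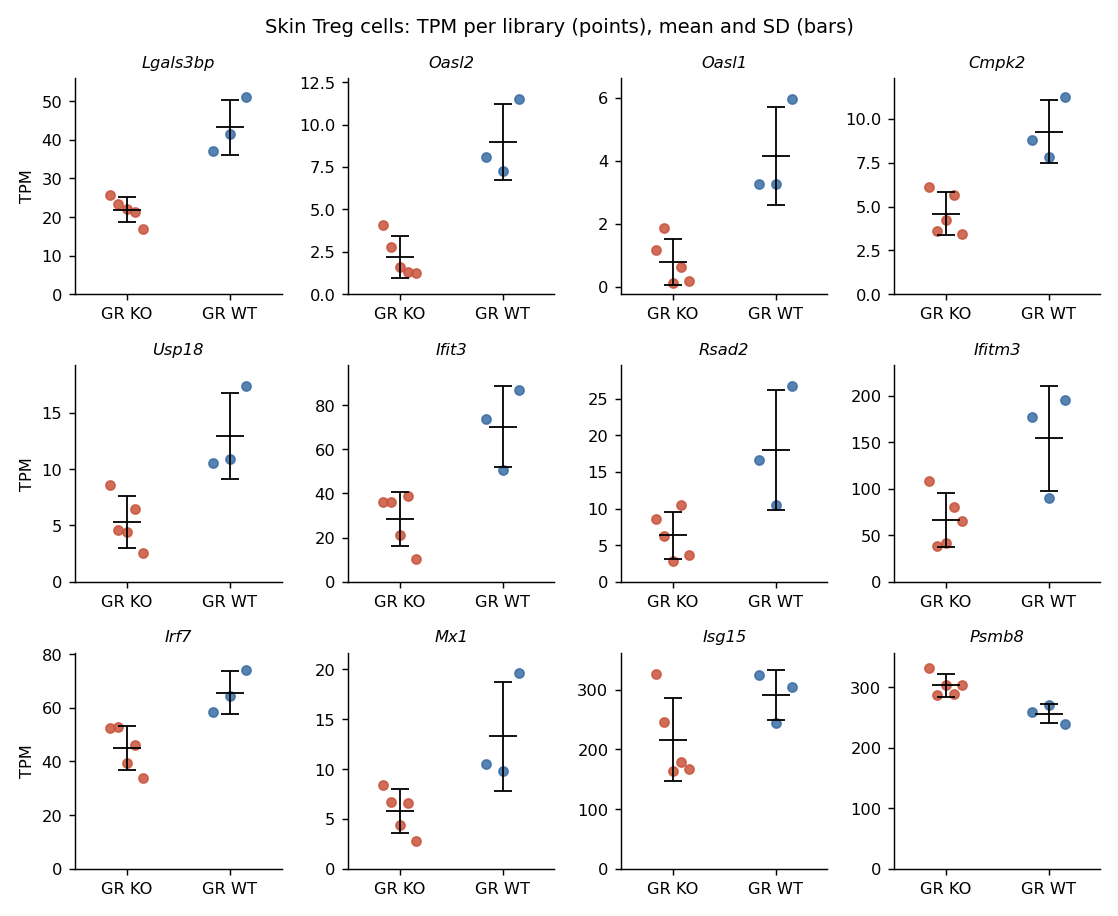
TPM of 12 members in each Treg library (points), with GR KO on the left of each panel and GR WT on the right, and the mean and SD of each group (bars, n = 5 and 3). Groups are separate for Lgals3bp, Oasl2, Oasl1, Cmpk2, Usp18, Ifit3, Rsad2, Irf7 and Mx1 with GR KO lower, separate with GR KO higher for Psmb8, and overlap for Ifitm3 and Isg15.

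The other called gene, Lgals3bp, encodes a secreted glycoprotein that binds galectins and is induced by interferon. Lgals3bp (NM_011150, chr11:118392752-118401931, minus strand) was at 25.7, 23.4, 22.1, 21.3 and 16.96 TPM in GR KO and at 37.0, 41.5 and 51.2 TPM in GR WT. The 5 GR KO libraries lay close together and below the GR WT range. It fell to 21.9 ± 3.21 TPM in GR KO (SD, n = 5), against 43.2 ± 7.21 TPM in GR WT (SD, n = 3), a log2 fold change of -0.95 (SE 0.15, adjusted p = 0.0109). Without GR WT 3 the adjusted p was 0.0654, and leaving out each library in turn gave 0.0129 to 0.0654.

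Among 13 antiviral effector genes, all had negative fold changes (median log2 -0.76), none passed, and 5 had GR KO below GR WT in every library (Ifit3, Mx1, Mx2, Rsad2 and Cmpk2). Ifit3, a member of the IFIT family that binds non-self RNA caps as a complex, was at 36.2, 36.0, 21.3, 38.7 and 10.4 TPM in GR KO and at 73.6, 50.5 and 86.9 TPM in GR WT. Its log2 fold change was -1.37 (SE 0.37, adjusted p = 0.122). Rsad2, which encodes viperin, an enzyme that makes a chain-terminating nucleotide, was at 8.62, 6.18, 2.83, 10.4 and 3.68 TPM in GR KO and at 16.6, 10.5 and 26.7 TPM in GR WT. The highest GR KO and the lowest GR WT library of Rsad2 nearly met, and the log2 fold change was -1.39 (SE 0.38, adjusted p = 0.128).

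Cmpk2, the neighbour of Rsad2 on the other strand, encodes a mitochondrial nucleotide kinase that supplies the substrate of viperin. It averaged 4.60 ± 1.21 TPM in GR KO (SD, n = 5) and 9.28 ± 1.77 TPM in GR WT (SD, n = 3), with a log2 fold change of -0.89 (SE 0.22, adjusted p = 0.0905). Its libraries spanned 3.41 to 6.11 TPM in GR KO and 7.81 to 11.2 TPM in GR WT. Mx1, a dynamin-like GTPase that blocks virus replication, was at 8.40, 6.71, 4.43, 6.61 and 2.82 TPM in GR KO and at 10.5, 9.82 and 19.6 TPM in GR WT (log2 fold change -1.08, SE 0.31, adjusted p = 0.151). Ifitm3 was at 108, 37.9, 41.7, 79.97 and 65.2 TPM in GR KO and at 177, 89.6 and 196 TPM in GR WT. GR KO 1 exceeded GR WT 2, so the groups overlapped. The log2 fold change of Ifitm3 was -1.23 (SE 0.34, adjusted p = 0.137), and it passed without GR WT 2 (adjusted p = 0.0488, range 0.0488 to 0.420 on leaving out each library in turn).

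Not every effector moved this far. Gbp2 and Gbp3, guanylate-binding GTPases that attack vacuoles of intracellular pathogens and respond strongly to interferon gamma, had log2 fold changes of -0.07 and -0.16, and Bst2, which tethers budding virus to the cell, -0.29. All had overlapping groups. The remaining effectors, Ifit1, Ifit2, Isg20, Trim30a and Mx2, lay between -0.99 and -0.45.

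Isg15 encodes a ubiquitin-like protein that is joined to other proteins, Herc6 the ligase that does so in mice, and Usp18 the protease that removes it and also restrains the type I receptor. Isg15 (NM_015783, chr4:156199424-156200818, minus strand) was at 326, 246, 165, 179 and 168 TPM in GR KO and at 324, 244 and 304 TPM in GR WT. GR KO 1 lay just above and GR KO 2 within the GR WT range and the other 3 GR KO libraries below it. The log2 fold change of Isg15 was -0.47 (SE 0.21, adjusted p = 0.356). Usp18 was separate between the groups, at 8.57, 4.62, 4.40, 6.46 and 2.51 TPM in GR KO and at 10.6, 10.9 and 17.4 TPM in GR WT (log2 fold change -1.19, SE 0.30, adjusted p = 0.101). Without GR KO 1 the adjusted p of Usp18 was 0.0499, and leaving out each library in turn gave 0.0499 to 0.366. Herc6 had a log2 fold change of -0.30 with overlapping groups.

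All 5 nucleic acid sensors were lower on average in GR KO and none passed (median log2 fold change -0.62). The groups did not overlap for Ddx58, which encodes the RNA sensor RIG-I, for Ifih1, which encodes MDA5, and for their regulator Dhx58. Ddx58 spanned 15.4 to 26.2 TPM in GR KO and 27.5 to 32.5 TPM in GR WT, with a log2 fold change of -0.62 (SE 0.18, adjusted p = 0.158). Zbp1, a sensor of Z-form nucleic acid, and Eif2ak2, the RNA-activated kinase that stops translation, averaged 74.5% and 66.0% of their GR WT means and overlapped.

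Receptor genes had fold changes near 0. The 3 receptor genes had log2 fold changes of -0.18 (Ifnar2), -0.08 (Ifnar1) and 0.01 (Ifngr1), and all overlapped. Ifngr1 was at 808, 742, 638, 864 and 806 TPM in GR KO and at 687, 830 and 783 TPM in GR WT, and its sign changed with the scaling of the libraries. Among the 4 transcription factor genes, Irf7, the master factor for amplifying type I interferon, was separate, at 52.6, 52.8, 39.4, 46.0 and 33.9 TPM in GR KO and at 58.3, 64.5 and 74.0 TPM in GR WT (log2 fold change -0.55, SE 0.16, adjusted p = 0.145). Irf1 was at 326, 256, 227, 288 and 323 TPM in GR KO and at 308, 310 and 284 TPM in GR WT, so that its GR KO libraries lay on both sides of GR WT. Stat2 had a log2 fold change of -0.63 (adjusted p = 0.192) and Irf9 of -0.15 (adjusted p = 0.746), both with overlapping groups.

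Of the other induced genes, Psmb8 stood on the opposite side. Psmb8 was at 332, 286, 304, 288 and 304 TPM in GR KO and at 258, 271 and 239 TPM in GR WT, with every GR KO library above every GR WT library, but it did not pass (log2 fold change 0.24, SE 0.09, adjusted p = 0.242). Ifi27l2a, the most abundant member, was at 1698, 1189, 891, 869 and 861.5 TPM in GR KO and at 1383, 1108 and 973 TPM in GR WT. GR KO 1 was above and 3 GR KO libraries were below the whole GR WT range (log2 fold change -0.11, SE 0.21, adjusted p = 0.871). Rtp4, a chaperone for receptors, was separate with GR KO lower (log2 fold change -0.71, adjusted p = 0.312). Xaf1, Ifi35, Parp14 and the chemokine gene Cxcl10 lay between -0.64 and -0.18 with overlapping groups. Ifi44 was too low to be tested, at 0.157 to 0.321 TPM in GR KO and 0.398 to 1.996 TPM in GR WT.

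**Figure D3:**
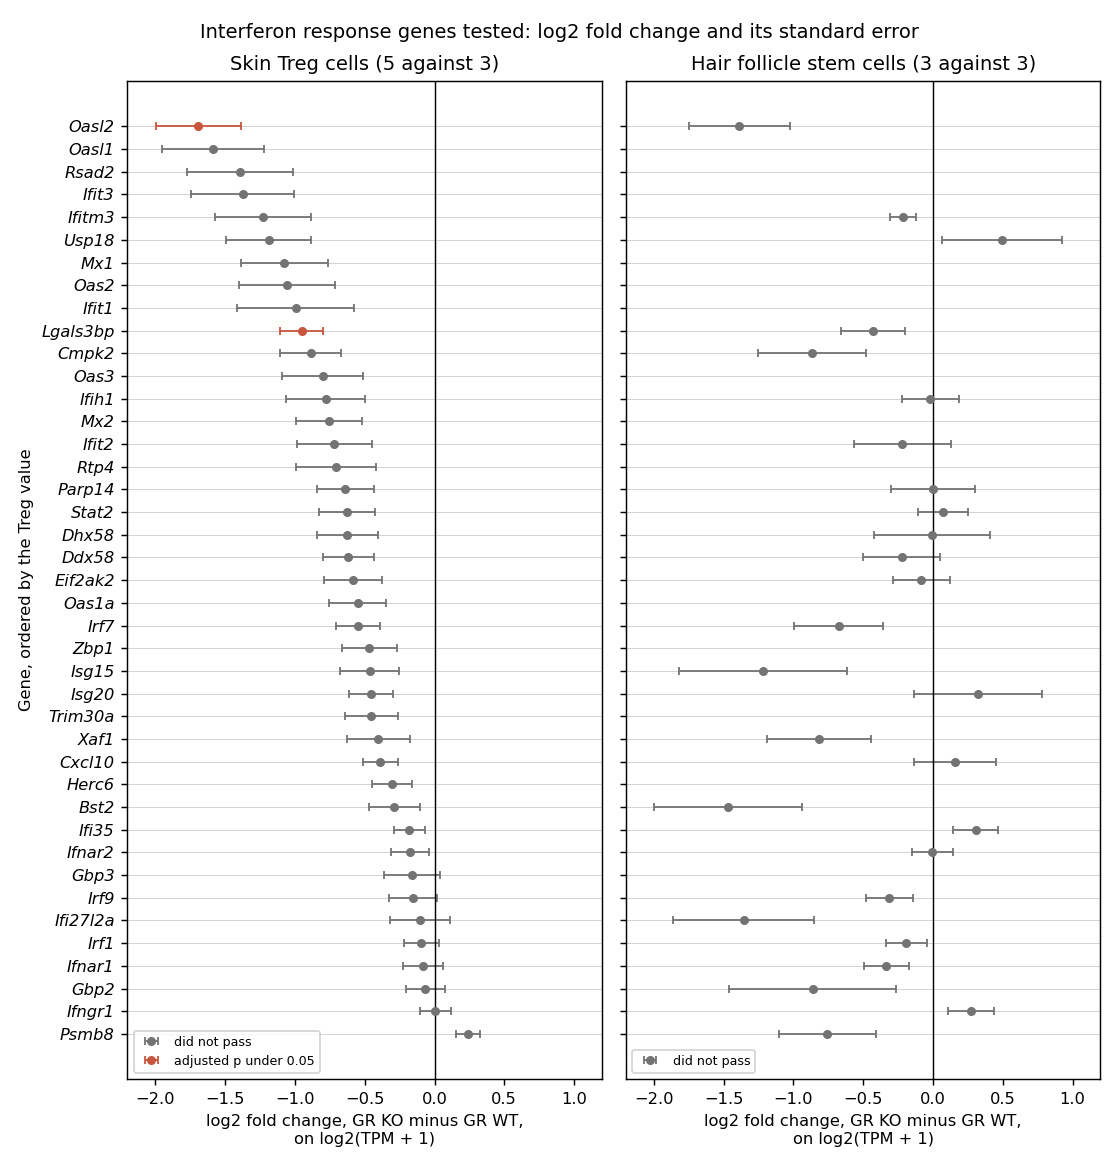
Log2 fold change of each tested member, GR KO minus GR WT on log2(TPM + 1), with its standard error (bars), in Treg cells on the left (5 against 3 libraries) and HFSC on the right (3 against 3 libraries), ordered by the Treg value. Oasl2 and Lgals3bp, in red on the left, passed an adjusted p of 0.05, and none passed on the right.

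Treg libraries of the same genotype took different places in the order of the members. Among the 5 GR KO libraries, GR KO 5 was the lowest for 24 of the 42 genes and GR KO 3 for 14, where they were the lowest for 12.5% and 20.3% of all genes tested. GR KO 1 was the highest for 20 members and GR KO 4 for 13, where they were the highest for 13.6% and 33.0% of all genes. In GR WT, GR WT 2 was the lowest for 21 members and GR WT 1 for 13, where they were the lowest for 27.7% and 50.6% of all genes. The mean log2(TPM + 1) over all members was 5.09, 4.95, 4.51, 4.96 and 4.44 in GR KO 1 to 5 and 5.39, 5.28 and 5.55 in GR WT 1 to 3, with GR WT 3 the highest for 24 members and for 43.4% of all genes. Every GR KO mean lay below every GR WT mean. The sum of TPM did overlap (3330 to 5191 TPM in GR KO and 4505 to 4873 TPM in GR WT), and it still did without Ifi27l2a, the most abundant member (2439 to 3492.7 TPM in GR KO and 3396.1 to 3724.6 TPM in GR WT).

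Transcripts of other cell types moved with the genotype in the same sort. Of 18 macrophage and monocyte markers, 16 were tested, 7 fell in GR KO (Cd14, Mrc1, Fcgr1, Lyz2, Itgam, Aif1 and Ms4a7) and 11 had GR KO below GR WT in every library. Over all genes tested in Treg cells, 1.31% were called lower and 5.10% had GR KO below GR WT in every library. Ccr2, which Treg cells also transcribe, made up most of the sum at 642 to 1026 TPM over all 8 libraries. With Ccr2 the list overlapped (767 to 1138 TPM in GR KO and 901 to 1136 TPM in GR WT). Leaving it out, a step chosen after its values were seen, the markers summed to 113, 97.8, 125, 72.7 and 188 TPM in GR KO and to 408, 251 and 439 TPM in GR WT. Lyz2, the myeloid lysozyme gene, was at 43.0, 37.6, 56.3, 31.5 and 108 TPM in GR KO and at 215, 127 and 200 TPM in GR WT.

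Of 8 neutrophil markers, 4 were tested and 2 fell, S100a8 and S100a9, which encode the subunits of calprotectin. The list summed to 21.0, 0, 3.90, 5.10 and 21.7 TPM in GR KO and to 328, 76.1 and 232 TPM in GR WT. Of 10 basal keratinocyte markers, 9 were tested and 6 fell, with sums of 28.7, 78.0, 115, 40.6 and 37.4 TPM in GR KO and 361, 349 and 585 TPM in GR WT. Of 9 T and Treg markers 1 fell, Il2ra. Of sebocyte markers 2 of 5 tested fell (Elovl3 and Plin2), with sums of 38.9 to 58.4 TPM in GR KO and 71.3 to 107 TPM in GR WT. Of follicle stem cell markers 2 of 4 tested fell (Cd34 and Krt15, which is also on the keratinocyte list), with sums of 38.3 to 65.3 TPM in GR KO and 175 to 319 TPM in GR WT. Fibroblast markers had no call, but all 7 tested were negative and 5 had an unadjusted p under 0.05, against 55.8% and 14.1% of all genes. Their sums overlapped (37.2 to 146 TPM in GR KO and 134 to 311 TPM in GR WT). No tested marker of dendritic and plasmacytoid dendritic cells (2), Langerhans cells (2), mast cells (1) or endothelium (4) was called.

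Within GR KO the lists did not follow one order. GR KO 5 had the lowest mean of the interferon members (4.44) and the highest mean log2(TPM + 1) of the macrophage list (2.77), and GR KO 4, the lowest for the macrophage list (2.12), was among the higher ones for the members (4.96). Within GR WT, the order of the members (5.39, 5.28 and 5.55) was that of the macrophage list (3.68, 3.30 and 4.06), over 3 libraries. The part of these other cells in the lower interferon transcripts of GR KO was not tested.

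**Figure D4:**
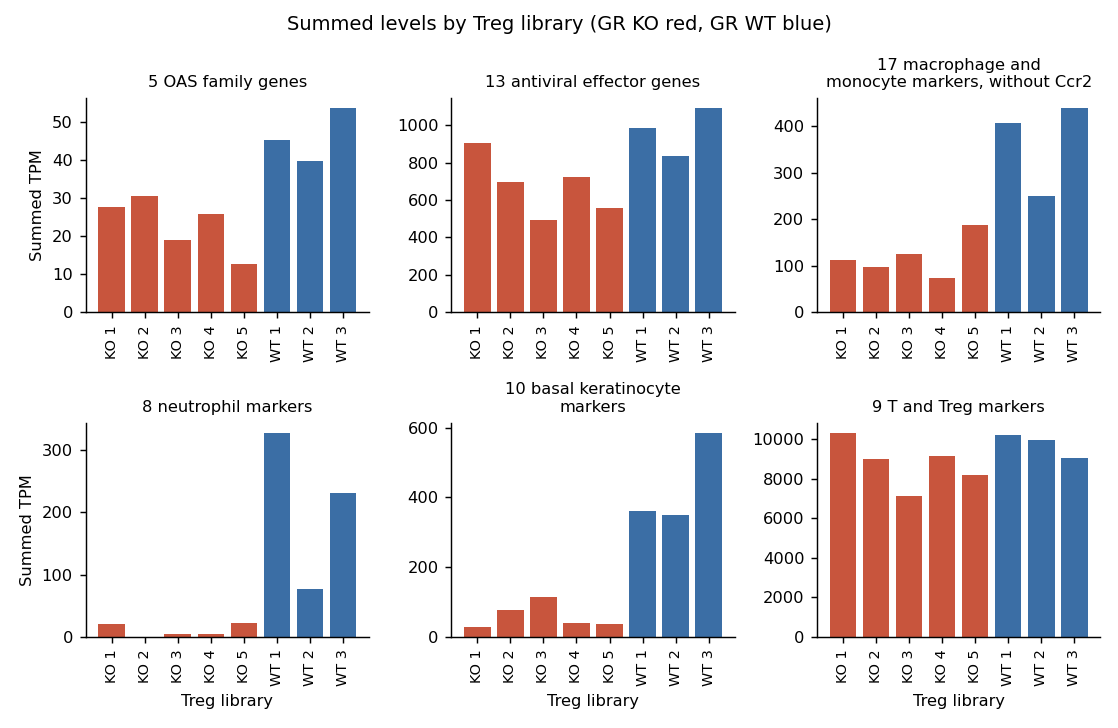
Summed TPM per Treg library for 2 groups of members and 4 marker lists, with GR KO (red) left of GR WT (blue) and each vertical axis starting at 0. The OAS sums lie between 12.8 and 30.4 TPM in GR KO and between 39.6 and 53.6 TPM in GR WT, the effector sums overlap, and the macrophage sums with Ccr2 left out, the neutrophil sums and the keratinocyte sums do not.

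Further genes of the pathway were read from a list of 100 that excludes the 42, of which 98 had a row and 82 were tested in Treg cells. There, 1 was called lower, Ifi204, and 0 higher, where 1.31% and 0.199% of all tested genes were. GR KO lay below GR WT in every library for 12 of the 82, against 5.10% of all genes, and above for 2, against 3.42%. The median log2 fold change was -0.21, against -0.04 for all genes. Ifi204, a DNA-binding member of the p200 family best known in myeloid cells, was at 6.17, 2.53, 3.99, 5.50 and 1.49 TPM in GR KO and at 15.0, 10.4 and 22.1 TPM in GR WT (log2 fold change -1.81, SE 0.35, adjusted p = 0.0296). The groups were well apart, and the call was lost without GR KO 2, GR KO 3, GR WT 1 or GR WT 3. The next smallest p-values belonged to its relative Ifi205 (log2 fold change -1.85, adjusted p = 0.0831), the Schlafen genes Slfn1 (-0.85, adjusted p = 0.0961) and Slfn5 (-0.68, adjusted p = 0.140), and none passed.

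Ligands and signalling genes of that list gave no call in Treg cells. Of 9 interferon genes, 7 were listed at 0 in all 8 libraries and Ifng, which encodes interferon gamma, was the only one tested. Ifng was at 65.4, 35.1, 35.8, 83.9 and 42.2 TPM in GR KO and at 41.8, 31.7 and 27.6 TPM in GR WT. Its groups overlapped (log2 fold change 0.56, SE 0.27, adjusted p = 0.392). Among the other receptors, kinases, factors and inhibitors, the inhibitor gene Socs3 had the smallest p (log2 fold change -0.66, adjusted p = 0.289), followed by the kinase gene Jak2 (-0.29, adjusted p = 0.354). Among sensing adaptors, Trim25, the ubiquitin ligase that activates RIG-I, had a log2 fold change of -0.47 (adjusted p = 0.190).

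In HFSC, none of the 27 members tested was called in either direction, where 0.0320% of 12493 genes were called lower and 0.144% higher. Fold changes were negative for 20 and positive for 7, against 52.8% negative over all genes, and the median was -0.22, against -0.02 for all genes. In 7 members every GR KO library lay below every GR WT library (Oasl2, Bst2, Ifi27l2a, Ifitm3, Cmpk2, Xaf1 and Ifnar1), as did 12.8% of all genes, and in 0 every one lay above, against 10.7%. The first 4 of these, 4 of 27, had an unadjusted p under 0.05, against 16.6% of all genes, a share near that of the members tested. Without GR WT 1, the library that stood apart, 8 of 26 members had GR KO below GR WT (30.8%, against 25.2% of all genes in that setting). Without GR KO 2 there were 12 of 27 (44.4%, against 16.7% of all genes), and no member was called in either setting.

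Oasl2 had the smallest p of the members tested in HFSC. It was at 0.579, 0.656 and 0.428 TPM in GR KO and at 2.42, 5.04 and 2.25 TPM in GR WT, from 6 to 10 tags per GR KO library and 22 to 62 per GR WT library. The groups were well apart on few tags. The log2 fold change was -1.39 (SE 0.36, adjusted p = 0.128), and with sample weights, where 584 of all 12493 genes were called (4.67%), the adjusted p was 0.0312, whereas leaving out each library in turn gave 0.128 to 0.354. The other OAS genes were not tested in HFSC, since their means did not reach 1 TPM.

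Bst2 was at 4.17, 7.03 and 0.588 TPM in GR KO and at 8.14, 12.7 and 10.1 TPM in GR WT (log2 fold change -1.47, SE 0.53, adjusted p = 0.230). Ifi27l2a was at 8.40, 2.69 and 16.1 TPM in GR KO and at 16.5, 29.96 and 17.3 TPM in GR WT (log2 fold change -1.36, SE 0.50, adjusted p = 0.240). In both genes the GR KO libraries were spread widely below the GR WT range. Ifitm3, the most abundant member here, was at 143, 150 and 154 TPM in GR KO and at 164, 184 and 171 TPM in GR WT, a narrow difference (log2 fold change -0.22, SE 0.09, adjusted p = 0.300).

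Low members followed. Cmpk2 was at 1.14, 0.516 and 0.140 TPM in GR KO and at 2.37, 1.60 and 1.57 TPM in GR WT (log2 fold change -0.87, SE 0.39, adjusted p = 0.312). Xaf1, a gene of apoptosis control, was at 0.349, 0.317 and 0.689 TPM in GR KO and at 1.06, 1.57 and 2.10 TPM in GR WT (log2 fold change -0.82, SE 0.37, adjusted p = 0.323). Both lie near the level that a few tags give in these libraries. Isg15 overlapped, at 0, 3.82 and 1.19 TPM in GR KO and at 1.83, 5.41 and 6.33 TPM in GR WT (log2 fold change -1.22, SE 0.60, adjusted p = 0.356).

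**Figure D5:**
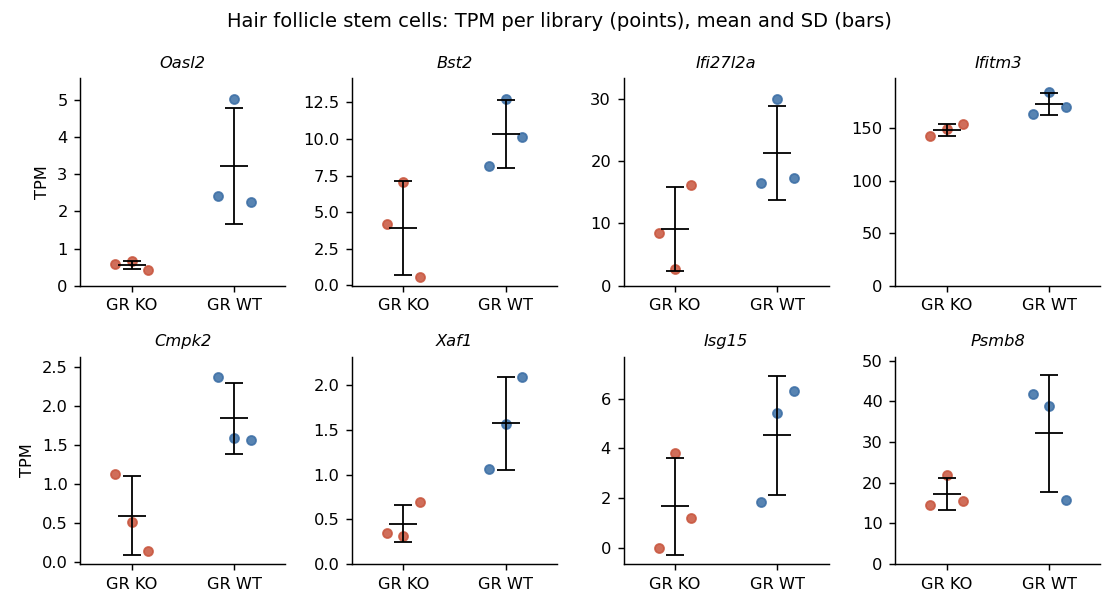
TPM of 8 members in each HFSC library (points), with GR KO left of GR WT in each panel, and the mean and SD of each group (bars, n = 3 each). GR KO lies below GR WT without overlap for Oasl2, Bst2, Ifi27l2a, Ifitm3, Cmpk2 and Xaf1, and the groups overlap for Isg15 and Psmb8.

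Of the abundant HFSC members, Irf1 averaged 79.7 ± 14.1 TPM in GR KO and 90.4 ± 8.999 TPM in GR WT (SD, n = 3 each, adjusted p = 0.555), and Irf9 16.1 ± 1.25 TPM in GR KO and 20.4 ± 4.04 TPM in GR WT (SD, n = 3 each, adjusted p = 0.402). Psmb8 was at 14.5, 21.8 and 15.6 TPM in GR KO and at 41.8, 38.9 and 15.7 TPM in GR WT, so that GR WT 3 lay among the GR KO values (log2 fold change -0.76, adjusted p = 0.323). Ifi35 had the higher mean in GR KO, at 30.6, 45.3 and 41.9 TPM in GR KO and at 31.3, 32.2 and 30.2 TPM in GR WT (log2 fold change 0.30, adjusted p = 0.379). The 15 members that were not tested here all averaged under 1 TPM over the table. Mx1 and Ifit3 were listed at 0 in all 3 GR KO libraries and reached at most 0.732 and 0.510 TPM in GR WT.

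Of other cell types in HFSC, sebocyte markers, from the gland cells beside the follicle, were abundant and moved with the genotype. They summed to 5794, 6734 and 7019 TPM in GR KO and to 2709, 4081 and 3914 TPM in GR WT, where follicle stem cell markers summed to 4643 to 5946 TPM in GR KO and 5875 to 8613 TPM in GR WT. Of the 8 sebocyte markers, 6 had GR KO above GR WT in every library, against 10.7% of all genes. Only 1, Plin2, was called higher (adjusted p = 0.0459), against 0.144% of all genes. The macrophage markers Ly6c2, Aif1 and Ms4a7 were listed at 0 in all 6 libraries, and the list summed to 25.3 to 32.0 TPM in GR KO and 30.4 to 40.2 TPM in GR WT. Lyz2 was at 0, 0.391 and 0.849 TPM in GR KO and at 6.54, 3.38 and 0 TPM in GR WT. No tested marker of macrophages (4 of 18), neutrophils (1 of 8) or T and Treg cells (1 of 9) was called. The 1 tested T cell marker had every GR KO library above every GR WT library (log2 fold change 0.95, limma adjusted p = 0.119). T and Treg markers summed to 13.7 to 14.1 TPM in GR KO and 5.81 to 12.3 TPM in GR WT. The part of these other cells in the interferon values was not tested. Of the 100 further pathway genes, 58 were tested in HFSC and 0 were called in either direction. GR KO lay below GR WT in every library for 11 of them, against 12.8% of all genes, and above for 3, against 10.7%. Their median log2 fold change was -0.09, against -0.02 for all genes. The smallest p belonged to Psme2, an activator subunit of the proteasome, at 107, 130 and 126 TPM in GR KO and 69.2, 90.4 and 81.5 TPM in GR WT (log2 fold change 0.59, adjusted p = 0.0996).

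Set side by side, 27 members were tested in both cell types, and 2 of them, Oasl2 and Cmpk2, had every GR KO library below every GR WT library in both. Over all 10362 genes tested in both, 55 did so (0.531%). Oasl2 averaged 24.5% of its GR WT mean in Treg cells and 17.2% in HFSC, and Cmpk2 49.6% and 32.4%. Lgals3bp, called lower in Treg cells, was at 7.33, 13.8 and 9.09 TPM in HFSC GR KO and at 13.04, 14.8 and 12.7 TPM in HFSC GR WT. GR KO 2 lay among the GR WT libraries there (log2 fold change -0.43, adjusted p = 0.386). Of the 27 members, 7 had opposite signs in the cell types (25.9%, against 51.6% of all genes tested in both), namely Usp18, Psmb8, Stat2, Isg20, Ifi35, Cxcl10 and Parp14. Fold changes were negative for 39 of 41 members tested in Treg cells and for 20 of 27 in HFSC. With most members negative in each, a low share of opposite signs does not show that single genes agree. For Usp18 the log2 fold change was -1.19 in Treg cells and 0.49 in HFSC, neither past the threshold. For Psmb8 the log2 fold change was 0.24 in Treg cells and -0.76 in HFSC, again neither past the threshold. Whether the genotype difference itself differed between the cell types was not tested, because the values were tabulated separately.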

How the data were processed

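Per the file headers, the authors deposited TPM values, a length-scaled level per gene, in 1 table for 8 Treg libraries and 1 for 6 HFSC libraries. The column names of the HFSC table begin with a Treg-like prefix and were matched to HFSC samples by table, genotype and replicate number. Follicle stem cell markers were abundant in all 6 and T cell markers summed to at most 14.1 TPM. Per the labels' protocols, RNA was isolated with Trizol and libraries were made with a stranded TruSeq mRNA kit, and per the submitters' processing notes FastQC, Trim Galore, STAR and HOMER were used with the mm10 genome. Tool versions and any use of strand in counting: not given in the sources used here. TPM times transcript length gave whole tag numbers (within 0.1 tag) for 100% of the low values tested, from which depth was read. Most recovered tag numbers up to 200 were even (68.7% to 77.3% per library), so tags are not independent molecules, and depth and floors cover counting error only.

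GR KO was compared with GR WT within each table on log2(TPM + 1) with limma 3.58.1 in R 4.3.3 (lmFit, eBayes with a mean trend, two-sided), for genes whose mean over the table was 1 TPM or more, with Benjamini-Hochberg adjustment over all of them and a threshold of 0.05. Fold changes are on the log2(TPM + 1) scale, which understates the change of low genes. The fit was tested on simulated data. Tags were not tested as counts, since the deposited unit is TPM. 

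The 42 genes, the 100 further pathway genes and the 13 marker lists were chosen with earlier results of these data known. Full values are given for Oasl2 and Isg15, for members past the threshold, for the 10 with the smallest p in Treg cells and the 6 in HFSC, and for the 5 with the highest mean in each. Of the 100 pathway entries, 2 had no row and were not analysed here, and some genes are not reported here. Oas1a, the IFIT genes, Mx1 and Mx2, the p200 genes and Trim30a have close relatives, so their values are uncertain where reads could be split between copies. Alternatives were other pseudocounts, filters, scalings, a robust prior, sample weights, a replicate block and leaving out each library in turn.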

Additional observations from a re-analysis of the deposited data

Results flagged for a closer look

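In Treg GR KO, 1 library stood far from the others for a marker list. The 5 melanocyte markers summed to 2.215 TPM in GR KO 5, against 0 to 0.43 TPM in the other 4 GR KO libraries, a gap of 0.806 of the range of the group where 0.71 marks a library far from the rest at the 95% level. None of these markers reached the mean level for testing in Treg cells. Chance alone marks about 1 in 20 groups, and 56 groups of values were examined.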

How the results depend on the processing

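The number of Treg members called lower, 2 as reported, was 3 with a pseudocount of 5 and with a robust prior (with Oasl1 added), 1 with a mean of at least 5 TPM (where Oasl2 was not tested), 0 with the replicate block (Oasl2 adjusted p = 0.169, Lgals3bp adjusted p = 0.117), and 0 to 3 with each library left out. The number of further pathway genes called lower in Treg cells, 1 as reported, was 2 with a pseudocount of 5, 0 without a filter, with quantile scaling and with the replicate block, and 0 to 4 with each library left out. The median summed TPM of the members in Treg GR WT, 4698, was 4361.5 under median ratio scaling. In HFSC, the members with GR KO below GR WT in every library, 7 as reported, numbered 4 with a mean of at least 5 TPM and 6 to 12 with each library left out. Those 6 to 12 were 23.1% to 44.4% of the members tested, where 16.4% to 25.2% of all genes did so, against 12.8% with all libraries. Members with GR KO above GR WT, 0 as reported, numbered 1 under median ratio and under quantile scaling and 0 to 1 with each library left out. With sample weights 1 HFSC member (Oasl2) and 2 further pathway genes were called lower and 1 higher, where 584 genes were called in all, against 22 as reported. Among single genes, Ifngr1 in Treg cells (0.01) changed sign under quantile scaling (-0.0503), sample weights (-0.0270), the replicate block (-0.0740) and leaving out libraries (-0.0709 to 0.0727), and Ifi27l2a (-0.11) under the replicate block (0.0899) and leaving out libraries (-0.276 to 0.0311). Where construction does not show it, the cause was not tested. The labels do not say whether libraries with the same replicate number belong together. Correlations of deviations between same-numbered libraries were 0.17, 0.087 and -0.117 in Treg cells and 0.016, 0.062 and -0.042 in HFSC. Between libraries of different numbers they were -0.243 to 0.177 in Treg cells and -0.073 to 0.051 in HFSC. So few values cannot decide whether the samples are paired. With the block 78 genes were called in Treg cells, against 175 without it, and 66 in HFSC, against 22. The Treg median of the members lay between -0.72 and -0.46 over all settings run. HFSC depth limits members under about 0.5 TPM.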

Other observations

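Of the 60 further interferon-induced genes tested in Treg cells, 48 had negative and 12 positive fold changes, against 55.8% negative over all genes. In 2, H2-D1 and Psme2, every GR KO library lay above every GR WT library, as it did in 3.42% of all genes. H2-D1, a class I heavy chain gene, averaged 3066 ± 264 TPM in GR KO (SD, n = 5) and 2410 ± 187 TPM in GR WT (SD, n = 3), with every GR KO library above every GR WT library and a log2 fold change of 0.35 (limma adjusted p = 0.142). H2-K1 averaged 3953 ± 346 TPM in GR KO and 3440 ± 269 TPM in GR WT (SD, n = 5 and 3). Tap1, a subunit of the peptide transporter, averaged 111 ± 15.8 TPM in GR KO and 90.8 ± 15.8 TPM in GR WT, and Psmb9, an immunoproteasome subunit, 119 ± 14.4 TPM in GR KO and 97.4 ± 12.9 TPM in GR WT (SD, n = 5 and 3 for both). None of these passed the test. H2-K1, Tap1 and Psmb9 were chosen after their values were seen.

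The guanylate-binding genes outside the 42 had log2 fold changes in Treg cells of -0.03 for Gbp4, -0.46 for Gbp5, -0.05 for Gbp6, -0.42 for Gbp7, -0.10 for Gbp8 and -0.43 for Gbp9, and none passed. In HFSC, Socs1, a feedback inhibitor of interferon signalling, had a log2 fold change of 0.64 (limma adjusted p = 0.366), and of 9 interferon genes 8 were listed at 0 in all 6 libraries, while Ifnk, a keratinocyte interferon, was above 0 in GR WT 3 alone (0.555 TPM).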
